A study of Mus musculus with 6 samples.

Results

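The genes that make, break down, carry and sense prostaglandins were compared between the kidneys of wild-type (WT) and Selenbp1-KO mice. They are 10 of the 37295 named genes on the arrays: Ptgs1, Ptgs2, Ptges, Ptges3, Ptges3l, Ptgds, Hpgd, Slco2a1, Ptger3, and Ptger4. All non-control probes that carry one of these names in the scanner files were taken, which gave 23 probes and 32 spots. In the Selenbp1-KO kidneys, Hpgd, the enzyme that inactivates prostaglandins, was higher by 0.33 on the log2 scale (1.26-fold) at its 1 probe. Of the 3 probes of Ptges3l, 1 was higher by 0.32, and another turned from 0.24 to −0.07 once the row of the array on the slide was taken into account. No probe of the other 8 genes passed the test. That made 2 of 23 probes past the unadjusted threshold, against 7.98% of all probes. None of the 23 probes passed after adjustment over all probes.

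Each group held 3 male mice, labeled as strain C57BL/6J, 8 weeks old, and fasted for 20 h. WT mice carried the intact gene, and Selenbp1-KO mice carried a knockout of Selenbp1, which encodes a selenium-binding protein. No treatment other than fasting is named in the labels. Per the study's methods, C57BL/6J mice were bought from a supplier and the knockout line had been generated earlier. Whether the WT mice were littermates is not stated in the sources used here, so colony and genotype cannot be told apart. The RNA came from dissected left kidneys, and with bulk RNA, fewer cells of a type and less RNA per cell cannot be told apart. The arrays were run to look for changes in genes of arachidonic acid metabolism.

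Prostaglandins are lipid signals made from arachidonic acid. A cyclooxygenase (Ptgs1 or Ptgs2, also known as COX-1 and COX-2) forms the common precursor prostaglandin H2, and terminal synthases turn it into prostaglandin E2, prostaglandin D2, prostacyclin, or thromboxane. The transporter Slco2a1 takes prostaglandins up into cells, where Hpgd oxidizes them to inactive products, and the remaining signal acts on G protein-coupled receptors such as Ptger3 (EP3) and Ptger4 (EP4). In the kidney, prostaglandin E2 is known for its abundance in the medulla and for its action on blood flow, renin release, and the transport of salt and water in the collecting duct.

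All 6 arrays lay on 1 slide, with WT replicates 2 and 3 in slide row 1 and WT replicate 4 and all Selenbp1-KO replicates in slide row 2, by the position in the scanner headers. The 75th percentile of the signal ran from 477 to 751 intensity units, and 51.8% to 55.5% of the non-control spots were well above background. Selenbp1 itself was read at 7.02 to 7.07 in WT and at 3.98 to 4.13 in Selenbp1-KO kidneys, so each array matched its label. Values given for a probe are log2 signals relative to the 75th percentile of the array, and a difference is KO minus WT on that scale. Values of the single arrays are listed as WT replicates 2, 3, and 4 and then Selenbp1-KO replicates 1, 2, and 3. Levels of different probes were not compared, since each probe binds with its own strength. Among the 56097 probes tested, 7.98% passed an unadjusted p of 0.05, the threshold of the study, in limma. Among the 26819 probes well above background on all arrays, 5.23% did.

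The following probe sequences are shown because the results turn on them: the Hpgd probe and the Ptges3l probe that differed, and the 3 Ptges probes that did not vary alike across the arrays. Capitals mark a poly(A) signal hexamer, the short motif that precedes the 3′ end of many mRNAs. It reads AATAAA in the Hpgd probe and ATTAAA in Ptges probe 1, and no capitals are used elsewhere. Of the 60-base probes of the arrays, 9.77% hold AATAAA and 3.86% hold ATTAAA on the strand printed, against 3.85% and 2.68% on the opposite strand. Such a match is a description of the probe and does not show where a transcript ends.
Hpgd (bases 17 to 46 of the probe): gaaatatttagtAATAAAagcttgtccggg
Ptges3l probe 2 (whole): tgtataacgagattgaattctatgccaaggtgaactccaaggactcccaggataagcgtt
Ptges probe 1 (bases 30 to 59 of the probe): aagtcagccccaATTAAAtgctttccttta
Ptges probe 2 (bases 1 to 30 of the probe): gccacttacagatgagctgtcaagatttga
Ptges probe 3 (whole): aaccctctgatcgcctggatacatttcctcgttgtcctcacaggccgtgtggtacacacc

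The Hpgd probe lies on the plus strand at chr8:58799399-58799458 of mm9 and starts at base 1274 of NM_008278. The Ptges probes lie on the minus strand of chromosome 2 and start at bases 3583, 740, and 364 of NM_022415, so that probe 1 sits far downstream of the other two in the same transcript. Ptges3l probe 2 starts at base 858 of NM_026865 and spans 158 genomic bases (chr11:101285174-101285331, minus strand), so its 60 bases come from more than 1 exon.

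Of the 23 probes, 16 were well above background on all 6 arrays and 7 on none. The dim ones were the Ptgs2 probe, Ptgs1 probe 2, Ptges3l probe 3, Ptger3 probes 3 and 4, Ptger4 probe 3, and Slco2a1 probe 4. No difference is given for these 7 probes, because neither genotype had a measured level. In the comparison of genotypes, 2 of the 23 probes passed the unadjusted threshold, against 7.98% of all probes, and both were higher in Selenbp1-KO kidneys, against 6.47% of all probes called higher. Both were among the 16 measured probes, where the share over all measured probes was 5.23%. Quantile normalization moved the median difference of all probes from 0.11 to 0.0003 and left Hpgd at 0.32 and the Ptges3l probe at 0.30, both past the unadjusted threshold. The genotypes did not overlap at 3 of the 23 probes, against 13.3% of all probes. All 3 were among the 16 measured probes, beside 4789 of the 26819 probes well above background on all arrays. The median difference of the 23 probes was 0.03, beside 0.11 over all probes and 0.01 over those with signal well above background throughout. With 3 against 3 arrays, an exact two-sided permutation test of a single probe cannot go below p = 0.1.

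**Figure D1:**
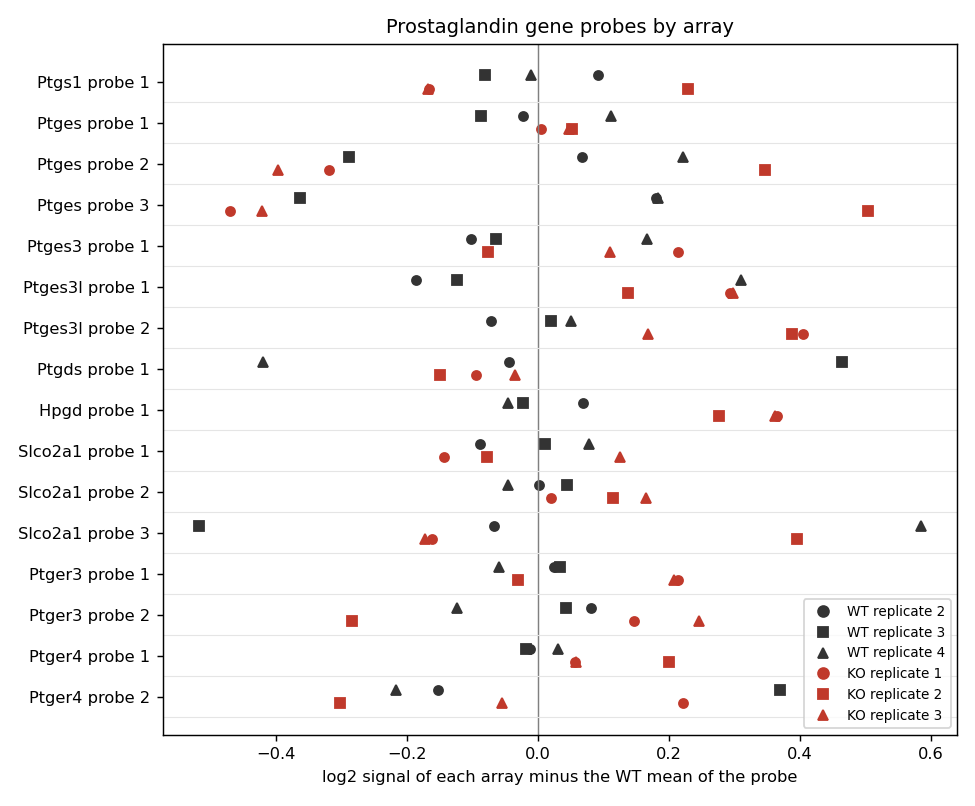
The log2 signal of each array is plotted for the 16 probes well above background, as the distance from the WT mean of that probe (vertical line at 0); black symbols are the 3 WT arrays and red symbols the 3 Selenbp1-KO arrays. For Hpgd, Ptges3l probe 2, and Ptger4 probe 1 the red symbols lie to the right of all black ones, while the other 13 probes overlap.

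Hpgd was the 1 gene of prostaglandin breakdown among the members. It encodes 15-hydroxyprostaglandin dehydrogenase, which oxidizes prostaglandin E2 and related molecules to forms with little activity. It read −0.87, −0.97, and −0.99 in WT and −0.58, −0.67, and −0.58 in Selenbp1-KO kidneys. All Selenbp1-KO arrays lay above all WT arrays, with an SD of 0.060 in WT and 0.050 in Selenbp1-KO kidneys (n = 3 each). The difference was 0.33 (standard error 0.097, 95% confidence interval 0.10 to 0.57, unadjusted p = 0.0133, adjusted p = 0.279 in limma). With the slide row as a block it was 0.38 (limma, unadjusted p = 0.0273), and within slide row 2, where WT replicate 4 alone stood for WT and was assumed to vary like the other group, it was 0.38 (limma, unadjusted p = 0.0638). Leaving out Selenbp1-KO replicate 1 gave 0.32 (limma, unadjusted p = 0.0547) and leaving out Selenbp1-KO replicate 3 gave 0.32 (limma, unadjusted p = 0.0505) with larger standard errors (0.13 each). Over the 19 alternatives the difference was positive each time, between 0.28 and 0.38, and passed the unadjusted threshold in 15. Its lowest adjusted p in limma was 0.0918, without WT replicate 4, where its unadjusted p was 0.0241. In that run 22.3% of all probes passed after adjustment. Several of these alternatives cannot move the difference: the filters, keeping flagged spots, limma's trend and robust settings, and the mean over the gene's 1 probe. Since the genotypes did not overlap, leaving out 1 array or adding a block could not change its sign. The constant direction is therefore weak evidence of stability. Across the 6 arrays, the genes whose signals followed Hpgd most closely among 18348 genes well above background were Slpi (Pearson r = 0.993), Nudt22 (0.990), and Sumo3 (0.989), a description over arrays of both genotypes. Slpi, a secreted protease inhibitor, differed by 3.21, Nudt22 by 0.18, and Sumo3 by 0.26.

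Marker genes of other cell types were compared on the same arrays, where 8.01% of all genes passed the unadjusted threshold and no marker passed after adjustment. All 8 macrophage markers were higher in Selenbp1-KO kidneys and 6 passed the unadjusted threshold, and their mean log2 level was −1.49 to −1.39 in WT and −1.005 to −0.84 in Selenbp1-KO kidneys, with 7 of the 8 well above background on all arrays. The 6 interstitial fibroblast markers were likewise all higher and 4 passed, with a mean level of −0.14 to 0.05 in WT and 0.39 to 0.68 in Selenbp1-KO kidneys, all 6 well above background on all arrays. Of 3 red blood cell markers 2 passed, and 1 of 4 glomerulus markers did. Of 3 mesothelium markers 1 passed, Lrrn4, which was well above background on no array. None passed among 7 proximal tubule, 5 thick ascending limb and macula densa, 7 collecting duct, 6 endothelium, 4 neutrophil, 4 urothelium, 5 fat, 4 adrenal cortex, and 5 immediate early genes. The 5 fat and 4 urothelium markers were nevertheless all higher, with mean levels that overlapped between genotypes. Their median differences were 0.75 and 0.59, beside 0.54 for macrophages and 0.58 for fibroblasts. Neutrophil, mesothelium, red blood cell, and adrenal cortex markers were all higher as well, some of them dim. Of the 24331 probes well above background on no array, 21035 were higher in Selenbp1-KO kidneys, with a median difference of 0.38. The direction of a dim marker therefore says little about its cell type. The remaining lists held genes of both directions. The mean level of the proximal tubule markers was 6.04 to 6.28 in WT and 6.13 to 6.17 in Selenbp1-KO kidneys. The part of these cell types in the Hpgd difference was not tested.

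Uptake into the cell, the step before oxidation, did not pass the test. Slco2a1 encodes the prostaglandin transporter. Its probe 1 read 1.42, 1.52, and 1.58 in WT and 1.36, 1.43, and 1.63 in Selenbp1-KO kidneys. The groups overlapped, and the difference was −0.03 with a 95% confidence interval of −0.32 to 0.26. Slco2a1 probe 2 differed by 0.10 (interval −0.14 to 0.34). Slco2a1 probe 3, which spans 243 genomic bases, ranged from −3.05 to −1.95 in WT and from −2.70 to −2.14 in Selenbp1-KO kidneys, with a difference of 0.02 (interval −0.75 to 0.79).

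**Figure D2:**
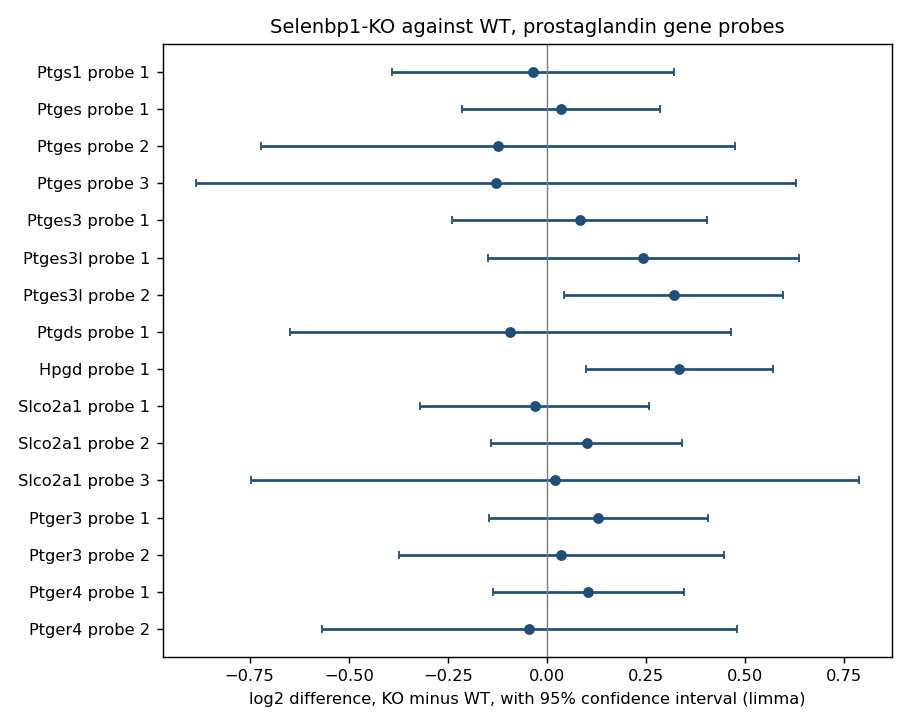
Points are the log2 differences, KO minus WT, of the 16 probes well above background, and bars are their 95% confidence intervals from limma (n = 3 per group). The intervals of Hpgd (0.10 to 0.57) and Ptges3l probe 2 (0.04 to 0.60) lie above 0, and the other 14 include 0.

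Of the cyclooxygenases, only Ptgs1 was measurable. Ptgs1, the constitutive enzyme, is abundant in collecting duct and interstitial cells of the medulla. Its probe 1 (chr2:36107644-36107703 of mm9) read 1.27, 1.09, and 1.16 in WT and 1.01, 1.40, and 1.01 in Selenbp1-KO kidneys. Selenbp1-KO replicate 2 was the highest of all arrays and the other Selenbp1-KO replicates the lowest, so the groups overlapped. The difference was −0.03 (standard error 0.15, 95% confidence interval −0.39 to 0.32). Ptgs2, the inducible enzyme, is known in the kidney from the macula densa and from medullary interstitial cells. Its single probe was not well above background on any array, at −7.17 to −6.04 in WT and −6.91 to −6.10 in Selenbp1-KO kidneys, so a change in Ptgs2 was not measurable here.

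Among the terminal synthases, Ptges encodes microsomal prostaglandin E synthase-1, which works downstream of the cyclooxygenases. Ptges probe 1, the most downstream of the 3, read 4.68, 4.62, and 4.82 in WT and 4.71, 4.76, and 4.75 in Selenbp1-KO kidneys. It hardly varied, and the difference was 0.03 (interval −0.21 to 0.28). Ptges probe 3, in the upstream part of the transcript, read −1.27, −1.81, and −1.27 in WT and −1.92, −0.95, and −1.87 in Selenbp1-KO kidneys. Here Selenbp1-KO replicate 2 was the highest array, and WT replicate 3 and Selenbp1-KO replicates 1 and 3 were the lowest. Ptges probe 2 read −0.18, −0.54, and −0.03 in WT and −0.57, 0.10, and −0.65 in Selenbp1-KO kidneys, with the same 3 arrays at the bottom. The differences of probes 2 and 3 were −0.12 (interval −0.72 to 0.47) and −0.13 (interval −0.89 to 0.63). The G and C content of the probes was 36.7%, 45%, and 55% for probes 1, 2, and 3.

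The order of arrays at Ptgs1 probe 1 and Ptges probes 2 and 3 was looked for elsewhere after it had been seen. WT replicates 2 and 4 and Selenbp1-KO replicate 2 were the highest arrays at these 3 probes and at 1 of the other 13 measured probes (Slco2a1 probe 3), beside 9.52% of the 26815 probes of the arrays with that level of signal and no missing value, so the order was not frequent among the members. Genes of the inner medulla and of urine concentration were listed after these values had been seen, and 5 of the 6 had the same 3 highest arrays. Slc6a12, the betaine transporter of cells in salty surroundings, read −1.07, −2.38, and −1.81 in WT and −3.01, −1.33, and −2.42 in Selenbp1-KO kidneys. Cryab, a small heat shock protein, read 6.00, 5.51, and 5.79 in WT and 4.92, 6.11, and 4.997 in Selenbp1-KO kidneys. Aqp4, Hspa4l, and Slc14a2 had that order too, and Slc5a3 did not, with Selenbp1-KO replicate 2 its lowest array at 1.17. For Slc14a2 the margin was very small, with WT replicate 2 at 2.239 and Selenbp1-KO replicate 3 at 2.234. The mean level of the 6 genes was 1.92, 1.39, and 1.87 in WT and 1.104, 1.79, and 1.26 in Selenbp1-KO kidneys. The 7 collecting duct markers, which were not chosen by this order, each had another set of 3 highest arrays. Of these markers, Scnn1b was well above background on only 4 arrays. The part of medulla content in the spread of Ptgs1 and Ptges was not tested.

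**Figure D3:**
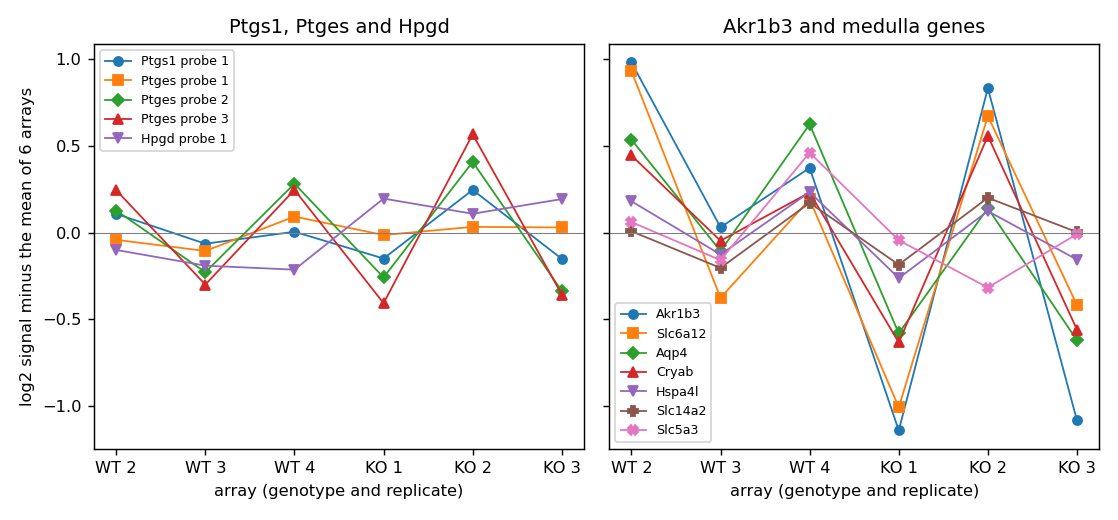
The log2 signal of each of the 6 arrays is plotted minus the mean of the 6, for probes of Ptgs1, Ptges, and Hpgd (left) and for Akr1b3 and the 6 genes of the inner medulla and of urine concentration (right); lines only join the points of 1 gene, and replicates have no order. Ptgs1 and Ptges probes 2 and 3 have WT 2, WT 4, and KO 2 as their highest arrays, as do the genes on the right except Slc5a3. Ptgs1 in WT 4 and Slc14a2 in WT 2 nevertheless lie close to the mean. Slc5a3 is lowest in KO 2, while Ptges probe 1 stays near 0 and Hpgd separates the genotypes.

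Ptges3 encodes p23, a co-chaperone of Hsp90 that is also called cytosolic prostaglandin E synthase. It read 4.31, 4.35, and 4.58 in WT and 4.62, 4.33, and 4.52 in Selenbp1-KO kidneys. The groups overlapped, and the difference was 0.08 (95% confidence interval −0.24 to 0.40). Ptgds encodes the lipocalin-type prostaglandin D synthase, and its probe (NM_008963) is printed 10 times on each array. The SD of those 10 spots was 0.035 to 0.065 on an array, whereas the mice read 1.24, 1.74, and 0.86 in WT and 1.19, 1.13, and 1.25 in Selenbp1-KO kidneys. WT replicate 3 was the highest array and WT replicate 4 the lowest, with the 3 Selenbp1-KO arrays between them. The spots of an array share 1 RNA sample and 1 hybridization, so their SD covers spot noise only. The difference was −0.09 (interval −0.65 to 0.46).

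Ptges3l is a p23-like gene, named for its similarity to Ptges3. Its probe 2 read −3.77, −3.68, and −3.65 in WT and −3.29, −3.31, and −3.53 in Selenbp1-KO kidneys. All Selenbp1-KO arrays lay above all WT arrays, and Selenbp1-KO replicate 3 was nearest to them. The difference was 0.32 (standard error 0.11, 95% confidence interval 0.04 to 0.60, unadjusted p = 0.0296, adjusted p = 0.279 in limma). It passed the unadjusted threshold under 10 of 18 alternatives, missed it with limma's trend and robust settings (unadjusted p = 0.156, standard error 0.22), ranged from 0.27 to 0.40, and its adjusted p in limma was 0.124 to 0.917. With the slide row as a block it was 0.27 (limma, unadjusted p = 0.139), and within slide row 2 it was 0.27 (limma, unadjusted p = 0.207). It missed the threshold without WT replicate 2 (0.28), without WT replicate 3 (0.33), without Selenbp1-KO replicate 1 (0.28), and without Selenbp1-KO replicate 2 (0.29). The study chose Ptges3l as an altered gene on these same arrays, so this is not independent evidence of its direction.

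Ptges3l probe 1, which starts at base 1387 of the same transcript, read −0.18, −0.12, and 0.32 in WT and 0.30, 0.14, and 0.30 in Selenbp1-KO kidneys. WT replicate 4, the WT array that shares slide row 2 with the Selenbp1-KO arrays, was the highest of all. The difference was 0.24 (interval −0.15 to 0.64, limma, unadjusted p = 0.181), and it turned to −0.07 with the slide row as a block and within slide row 2. Without WT replicate 4 it was 0.40 (limma, unadjusted p = 0.0131), and with limma's trend and robust settings it passed at 0.24 (unadjusted p = 0.0413), where probe 2 did not. For this probe the slide row and WT replicate 4 moved with the value, and their part in it cannot be separated with 1 WT array in that row.

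**Figure D4:**
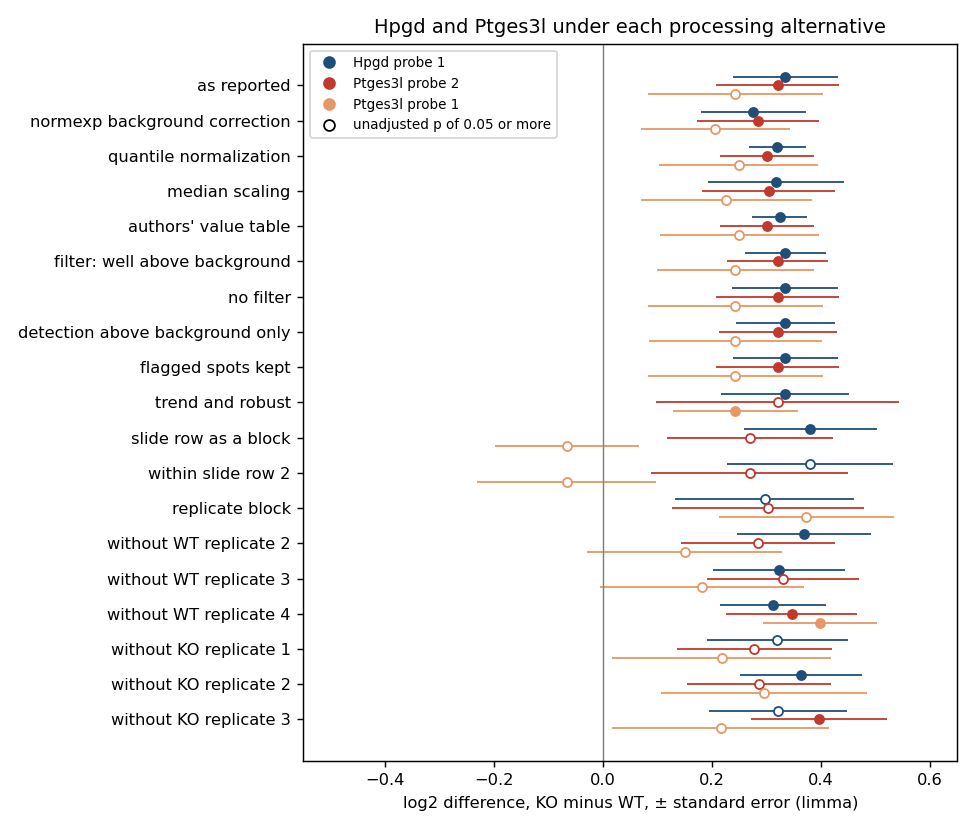
Points are the log2 differences, KO minus WT, of Hpgd and of Ptges3l probes 1 and 2 as reported and under each alternative processing or left-out array, bars are standard errors from limma, and open points have an unadjusted p of 0.05 or more. Hpgd stays between 0.28 and 0.38 and Ptges3l probe 2 between 0.27 and 0.40, while Ptges3l probe 1 turns to −0.07 once slide row is taken into account.

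The receptors for prostaglandin E2 did not pass the test at any measured probe. Ptger3 encodes EP3, the receptor that lowers cyclic AMP and opposes vasopressin in the collecting duct and thick ascending limb. Its probe 1 read 0.08, 0.09, and −0.01 in WT and 0.27, 0.02, and 0.26 in Selenbp1-KO kidneys. Selenbp1-KO replicates 1 and 3 lay above the WT arrays and Selenbp1-KO replicate 2 lay among them, with a difference of 0.13 (95% confidence interval −0.15 to 0.41). Ptger3 probe 2 differed by 0.04 (interval −0.37 to 0.45), with Selenbp1-KO replicate 2 the lowest of all arrays at −1.60 and Selenbp1-KO replicate 3 the highest at −1.07. Ptger3 lies on chromosome 3, as does the deleted gene, at a distance of 62.5 Mb.

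Ptger4 encodes EP4, the receptor that raises cyclic AMP and acts on vessels and on renin-producing cells. Its probe 1 read −1.17, −1.17, and −1.12 in WT and −1.10, −0.95, and −1.10 in Selenbp1-KO kidneys. The arrays did not overlap, yet the difference of 0.10 (interval −0.14 to 0.34, limma, unadjusted p = 0.327) was small against the error of the fit. Ptger4 probe 2 ranged from −3.95 to −3.36 in WT and from −4.03 to −3.51 in Selenbp1-KO kidneys, and differed by −0.05 (interval −0.57 to 0.48). The intervals of these receptor probes still allow differences in either direction.

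The other genes of the pathway were 21, each read by its brightest probe, and 4 of them passed the unadjusted threshold, against 8.01% of all genes. They were 2 of 9 terminal synthases and reductases, 2 of 8 receptors, and none of 3 genes of breakdown and export or of the 1 gene of arachidonate release. None passed after adjustment. The median difference of the 21 genes was 0.13. Of the 4 called genes only Ptgis, the prostacyclin synthase, was well above background. It read −0.30, −0.32, and 0.002 in WT and 0.14, 0.29, and −0.003 in Selenbp1-KO kidneys, with WT replicate 4 inside the Selenbp1-KO range. The difference was 0.35 (standard error 0.14, unadjusted p = 0.0487, adjusted p = 0.279 in limma), and the study chose this gene too on these arrays. With the slide row as a block and within slide row 2 it was 0.14 (limma, unadjusted p = 0.414 and 0.498), and it missed the threshold without WT replicate 2 (0.30), without WT replicate 3 (0.29), without Selenbp1-KO replicate 1 (0.35), and without Selenbp1-KO replicate 2 (0.27). The other 3 called genes, Hpgds (hematopoietic prostaglandin D synthase), Ptger2 (EP2), and Ptgdr2 (a prostaglandin D2 receptor), were well above background on no array, as was Ptgdr, the other prostaglandin D2 receptor, so no difference is given for them.

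Further steps of breakdown and export had small differences that did not pass the test. Ptgr1 and Ptgr2, reductases that act on the product of Hpgd, differed by 0.15 and 0.11, and Abcc4, an exporter of prostaglandins, differed by −0.18. At these 3 genes the genotypes did not overlap, as at 5 of the 21 pathway genes and 13.3% of all probes. Among the 26819 probes well above background on all arrays, 4789 did not overlap. Akr1b3, the aldose reductase that can also form prostaglandin F2α, read 5.93, 4.98, and 5.32 in WT and 3.80, 5.78, and 3.86 in Selenbp1-KO kidneys. Its difference of −0.93 (standard error 0.58) came with an SD of 1.12 among the Selenbp1-KO mice. Akr1b3, Ptger1 (EP1), Pla2g4a, which releases arachidonic acid, and Ptgfrn were the 4 of 17 measured pathway genes with WT replicates 2 and 4 and Selenbp1-KO replicate 2 on top, the order of Ptgs1, beside 9.52% of all measured probes.

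**Figure D5:**
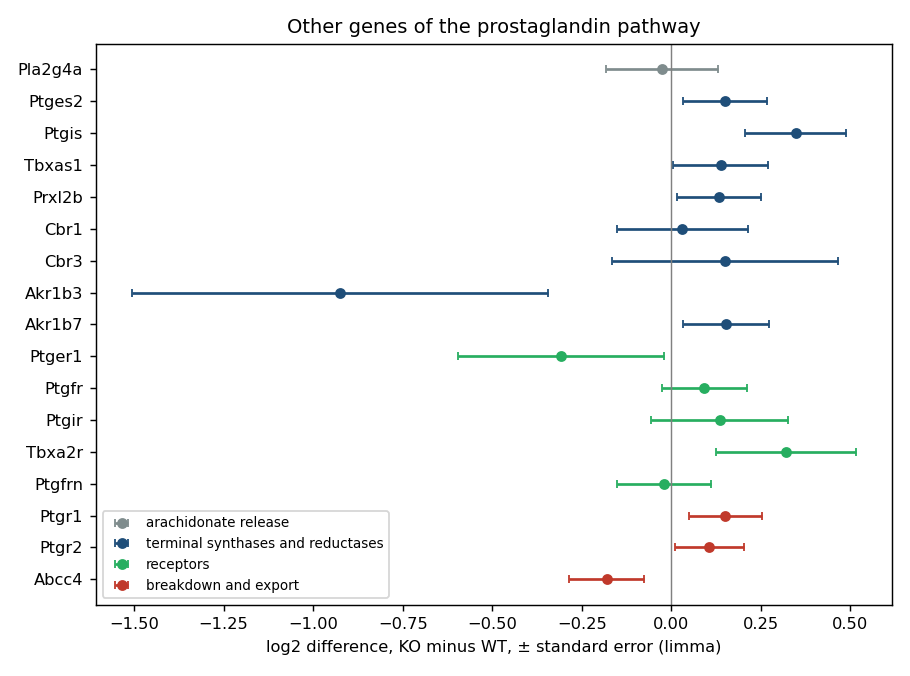
Points are the log2 differences, KO minus WT, of the 17 other pathway genes well above background on all arrays, colored by role, and bars are standard errors from limma (n = 3 per group). Most points lie within 0.2 of 0, Ptgis lies at 0.35, Tbxa2r at 0.32, and Ptger1 at −0.31, and Akr1b3 lies at −0.93 with the widest bar.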

How the data were processed

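Kidney RNA was labeled with Cy3 and hybridized to 1 array per mouse. Scanning was done by the authors with Feature Extraction (version 10.7.1.1 per the file headers), and they deposited linear intensities, corrected for background within each array but left unscaled across arrays, and a detection p-value for each spot. A table of quantile normalized intensities, also deposited, served as an alternative. Here, the log2 intensity was taken minus that of the array's 75th percentile, outlier-flagged spots were dropped, and the spots of each probe were averaged. The 56097 of 56605 probes whose detection p was under 0.05 on 1 array or more were fitted with limma 3.58.1 in R 4.3.3 (two-sided, Benjamini–Hochberg adjustment, statmod 1.5.0 for the robust option). With 3 WT and 3 Selenbp1-KO arrays, their number limits the precision. In 10 runs on simulated data, 88.8% of 200 probes changed by 1 log2 unit were found and 5.43% of the others were called. The 2 member differences called were 0.33 and 0.32, so the 88.8% does not give the share found at differences of that size. Probe positions come from the files (mm9), and 16 of the 23 probes matched a RefSeq accession. All members were named, and of the other pathway genes those called or not well above background, with further ones named after their values were seen. Members and lists were chosen with earlier results of these data known. Whether the mice came from separate litters is not given in the sources used here. The p-values set a difference against the variation between these arrays within a group, which limma estimated partly from all probes.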

Additional observations from a re-analysis of the deposited data

How the results depend on the processing

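The 2 prostaglandin gene probes called became 0 where a log2 difference of at least 0.5 was also asked for, and 0 (without Selenbp1-KO replicate 1) to 4 (without WT replicate 4) with 1 array left out. Without WT replicate 4, 1 probe passed after adjustment, Ptger4 probe 3 (adjusted p = 0.049 in limma), which was dim on all arrays, beside 22.3% of all probes. With limma's trend and robust settings the count stayed at 2, but Ptges3l probe 1 took the place of probe 2. Of all probes, 4479 were called (3632 higher and 847 lower), and 14616 with median scaling, 2841 after filtering on signal well above background, 7536 under limma's trend and robust settings, 2799 with the minimum log2 difference, and 2024 (without WT replicate 2) to 17585 (without WT replicate 4) with 1 array left out. Quantile normalization called 2527 higher and 2170 lower, and the slide row as a block 1361 and 2290. Median scaling called 13681 higher and 935 lower, and normexp 6038 and 290. The excess of higher calls thus shrank with quantile normalization, widened with median scaling and normexp, and turned over with the slide row. The other pathway genes called were 4, and 2 with normexp, 1 after that filter, 1 with the slide row as a block, 0 within slide row 2, and 1 to 6 with 1 array left out.

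The labels do not say that shared replicate numbers 2 and 3 pair mice, and the deviations of same-numbered arrays correlated at 0.171 and 0.187. With the replicate number as a block, 18430 probes were called, of which 3 were prostaglandin gene probes. All 3 were dim probes, well above background on no array, and no measured prostaglandin gene probe was called. Under the block Hpgd stood at 0.30 and Ptges3l probe 2 at 0.30, with Ptgis at 0.45 (limma, unadjusted p = 0.0552), none past the threshold, and the differences that changed sign were 0.025 for Ptgs1 probe 1, 0.086 and 0.13 for Ptges probes 2 and 3, −0.081 for Ptger3 probe 2, and 0.063 for Slco2a1 probe 1.

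Hpgd, Ptges3l probe 2, Ptger3 probe 1, Ptger4 probe 1, and Slco2a1 probe 2 kept their direction under each alternative run. At Hpgd, Ptges3l probe 2, and Ptger4 probe 1 the genotypes did not overlap, so leaving out 1 array or adding a block could not turn the sign. The sign changed, for differences that had not passed the test, with the slide row as a block and within slide row 2 for Ptges probe 1 (−0.076), Ptges3 (−0.084), Ptges3l probe 1 (−0.067), Ptgds (0.33), Ptger4 probe 2 (0.17), and Slco2a1 probe 3 (−0.57). It also changed for Ptges probe 1 with quantile normalization (−0.031), in the authors' table (−0.018), and in the mean over its probes (−0.073), for Slco2a1 in the mean over its probes (0.015), and for Ptger4 probe 2 with normexp (0.15). With 1 array left out, the range was −0.17 to 0.032 for Ptgs1 probe 1, −0.0093 to 0.090 for Ptges probe 1, −0.36 to 0.014 for Ptges probe 2, −0.45 to 0.041 for Ptges probe 3, −0.30 to 0.14 for Ptgds, −0.068 to 0.20 for Ptger3 probe 2, −0.18 to 0.14 for Ptger4 probe 2, −0.11 to 0.024 for Slco2a1 probe 1, and −0.24 to 0.31 for Slco2a1 probe 3. Ptgis, followed through the same alternatives after the data were seen, stayed positive, at 0.14 to 0.45. The cause was not tested. The 7 dim probes are limited by signal over background and were not followed through the alternatives one by one.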
